A study of Homo sapiens with 4 samples.

Results

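Chemokine and chemokine receptor genes were examined after depletion of SSRP1 in BE(2)C, a long-established cell line from a human neuroblastoma. SSRP1 is a subunit of the histone chaperone FACT. The genes were chosen by symbol: every named gene whose symbol has the CXCR, CCR, CX3CR, XCR or ACKR receptor root, or the CXCL, CCL, CX3CL or XCL ligand root, followed by its number. This gave 59 of 14812 named genes, 39 ligands and 20 receptors, each measured by 1 probe set. Counted among the CC ligands is CCL15-CCL14, a joint entry that is not protein coding in RefSeq. CCL14 and CCL15 themselves had no named probe set. The control group received a control siRNA from the ON-TARGETplus line and the other group siRNA against SSRP1, both delivered with a lipid transfection reagent. Each group held 2 samples and each sample 1 Affymetrix Human Gene 2.0 ST array, with RNA taken at 72 hours. The labels give a single catalogue number for the SSRP1 siRNA while the design text uses the plural, so whether one siRNA or a pool was used is not settled. Depletion of SSRP1 and any other effect of the reagent cannot be told apart. Separate cultures are not stated for the replicates, so a p-value reflects the spread among these 4 samples alone, and that spread may be technical.

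Chemokines are small secreted proteins that bind G protein-coupled receptors and direct cell movement along their gradients. The CXC and CC classes are named for the spacing of cysteines near the amino terminus, and the C and CX3C classes are small. Inflammatory chemokines are induced by NF-kB and interferon signalling, while homeostatic ones such as CXCL12 guide cells during development. CXCR4 is the receptor for CXCL12 and steers neural crest derivatives and blood stem cells, and in neuroblastoma it is known for its link to growth and to spread to bone marrow. ACKR3 is an atypical receptor that binds CXCL12 and removes it without G protein signalling.

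Promoter sequences are shown for the receptor that changed, for its ligand, and for the ligand of smallest p-value, an inflammatory CC chemokine. They are the 250 bases before the outermost annotated start, taken by gene from RefSeq on GRCh38.p14 and printed 5' to 3' on the gene's strand. CXCR4 lies at chr2:136118150-136118399 on the minus strand, CXCL12 at chr10:44385098-44385347 on the minus strand and CCL8 at chr17:34319185-34319434 on the plus strand. Capitals mark every match, on either strand, to the searched motifs: the NRF1 core GCATGCGC, the GC box GGGCGG, the TATA box TATAAA, the hypoxia response core ACGTG, the STAT site TTCNNNGAA and the kappaB site.
CXCR4: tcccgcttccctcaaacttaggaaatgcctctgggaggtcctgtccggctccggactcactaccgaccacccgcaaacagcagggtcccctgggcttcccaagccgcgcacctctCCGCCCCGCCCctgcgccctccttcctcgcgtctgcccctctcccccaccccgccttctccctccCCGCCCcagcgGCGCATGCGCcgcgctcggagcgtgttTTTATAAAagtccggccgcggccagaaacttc
CXCL12: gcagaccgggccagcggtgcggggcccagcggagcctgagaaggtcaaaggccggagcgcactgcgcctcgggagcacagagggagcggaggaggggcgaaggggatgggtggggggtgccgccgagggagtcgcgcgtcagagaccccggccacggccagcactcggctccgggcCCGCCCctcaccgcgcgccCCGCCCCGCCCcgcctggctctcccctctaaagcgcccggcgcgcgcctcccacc
CCL8: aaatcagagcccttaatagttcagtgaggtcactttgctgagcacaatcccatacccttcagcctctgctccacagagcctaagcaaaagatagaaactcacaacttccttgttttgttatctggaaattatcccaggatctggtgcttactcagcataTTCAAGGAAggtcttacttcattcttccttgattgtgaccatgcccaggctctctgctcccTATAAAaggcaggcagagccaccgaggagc

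The CXCR4 promoter held 24 CpG pairs and 68.0% G and C, the CXCL12 promoter 31 pairs and 78.0%, and the CCL8 promoter 1 pair and 46.4%. In CXCR4, GC boxes began 135, 130 and 70 bases before the start, the first pair sharing a base, and overlapping NRF1 cores on both strands spanned bases 59 to 50. TATA box letters on both strands overlapped between 32 and 25 bases before the start. CCL8 carried a STAT site at bases 91 to 83 and a TATA box at bases 30 to 25 before its start. Promoters were found for 41 of the 59 genes. Across these the median was 3 CpG pairs, against 10 over the 27305 promoters of the table. A TATA box was present in 11 of 27 ligand promoters (40.7%) and in 1 of 14 receptor promoters, that of CXCR4, against 11.2% of all promoters. A kappaB site was present in 9 of 27 ligand promoters (33.3%) and 1 of 14 receptor promoters, against 9.58% of all. The NRF1 core was found in the CXCR4 promoter and in no other of the 41, against 2.83% of all, and GC boxes were found in 9 of the 41 (22.0%) against 42.2%. STAT sites were found in 7 of the 41 (17.1%) against 6.76%, and the hypoxia core in 3 (7.32%) against 18.6%. These matches describe letters in a window and show nothing about binding.

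The target and the identity of the cells were examined first. SSRP1 had log2 values of 9.05 and 9.23 with control siRNA and of 7.42 and 6.97 with its own siRNA. That left 26.0% of the control level (limma adjusted p = 0.0479). This call was lost with robust variances (adjusted p = 0.0512), over all probe sets (0.144), with the replicate number as a block (0.0569) and without any 1 array (0.241 to 0.599). Array medians over all probe sets lay between 3.37 and 3.42, and correlations between arrays lay between 0.990 and 0.993. Of 10 noradrenergic markers 8 were measured, among them DBH, HAND2, PHOX2A and GATA3, and all 8 lay above the median level of all genes (4.64). None of the 8 passed the test, 7 had a change below 0, and 4 (50%) had an unadjusted p under 0.05, 3 lower and 1 higher, against 12.6% of all genes. The enzyme gene DBH, which makes noradrenaline, had values of 9.67 and 9.50 with control siRNA and 8.83 and 8.80 with SSRP1 siRNA, a change of -0.77 ± 0.11 (SE, limma adjusted p = 0.111). The chemokine genes were otherwise: 55 of the 59 lay below that median and 4 above it. Those 4 were CXCR4, CX3CL1, CXCL2 and CCL17. No detection calls were used here, so a probe set below the median may read background as well as RNA, and changes there may be understated. Probe sets differ in how brightly they report RNA, so levels of different genes are not ranked here.

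**Figure D1:**
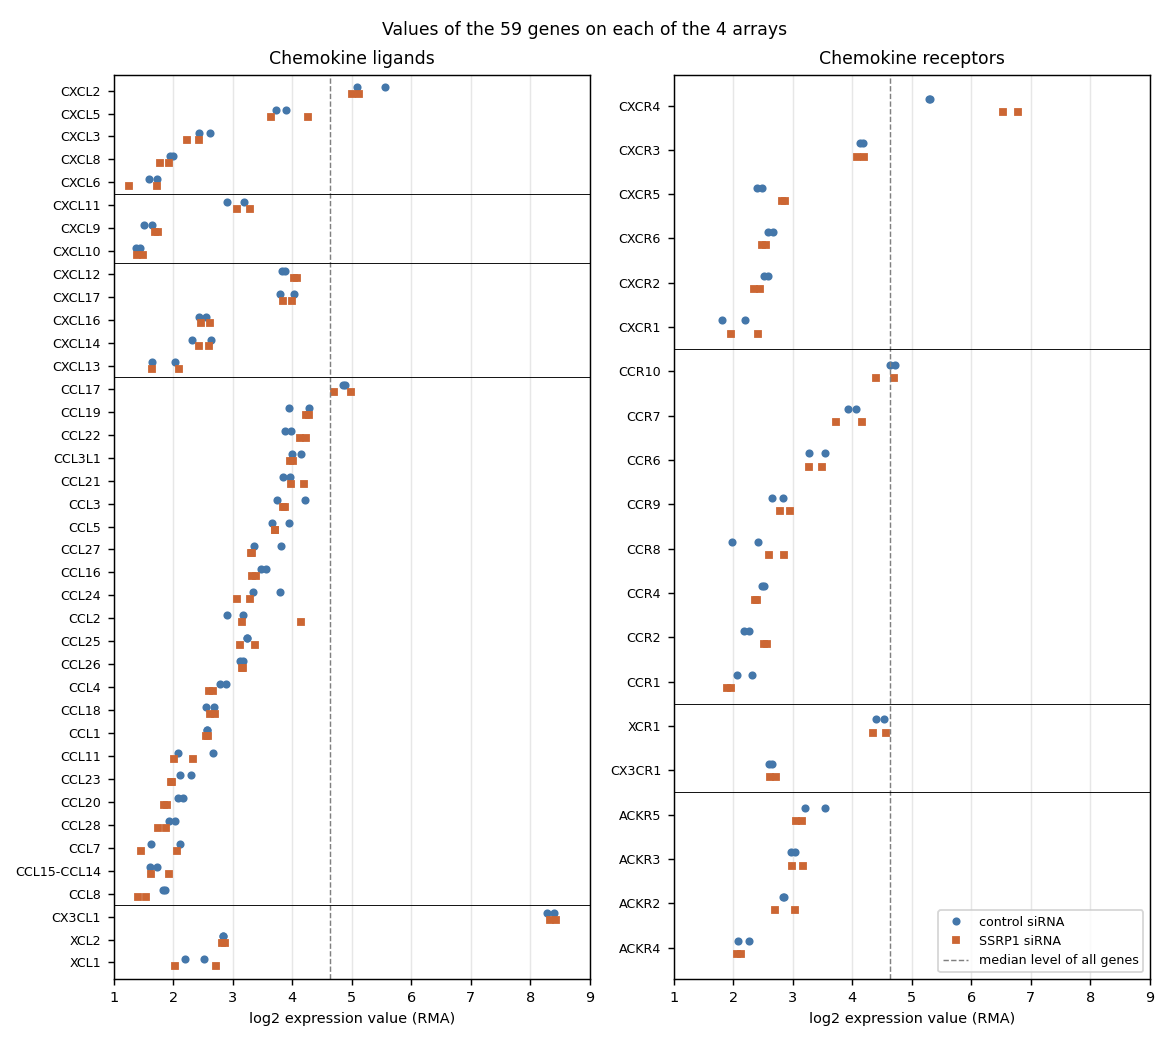
Log2 expression values (x axis) of the 39 ligands and 20 receptors (rows, split by role) on the 2 control siRNA arrays (circles) and the 2 SSRP1 siRNA arrays (squares), with the median level of all genes (4.64) as a dashed line. CXCR4 is the row whose squares stand clearly to the right of its circles, and for most other rows the marks lie close together or mix.

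Among the receptors CXCR4 rose with SSRP1 siRNA. Its log2 values were 5.28 and 5.31 with control siRNA against 6.78 and 6.53 with SSRP1 siRNA. Both SSRP1 siRNA arrays lay above both control arrays, with a gap of 1.22 between the nearest pair. The replicates differed by 0.028 in the control group and by 0.25 in the SSRP1 siRNA group, both far less than that gap. The log2 change was 1.36 ± 0.12 (SE), with a 95% interval from 1.06 to 1.66. On the linear scale this is a 2.57-fold rise, with an interval from 2.09 to 3.17, and limma gave an adjusted p of 0.0479. CXCR4 had the 19th largest rise and the 12th smallest p-value of the 14812 genes. It was the 1 member of 59 past an adjusted p of 0.05 (1.69%), 1 higher and 0 lower, where 0.0945% of all genes passed, 0.081% higher and 0.0135% lower. It was also the 1 member with a change of at least 2-fold, against 0.385% of all genes.

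**Figure D2:**
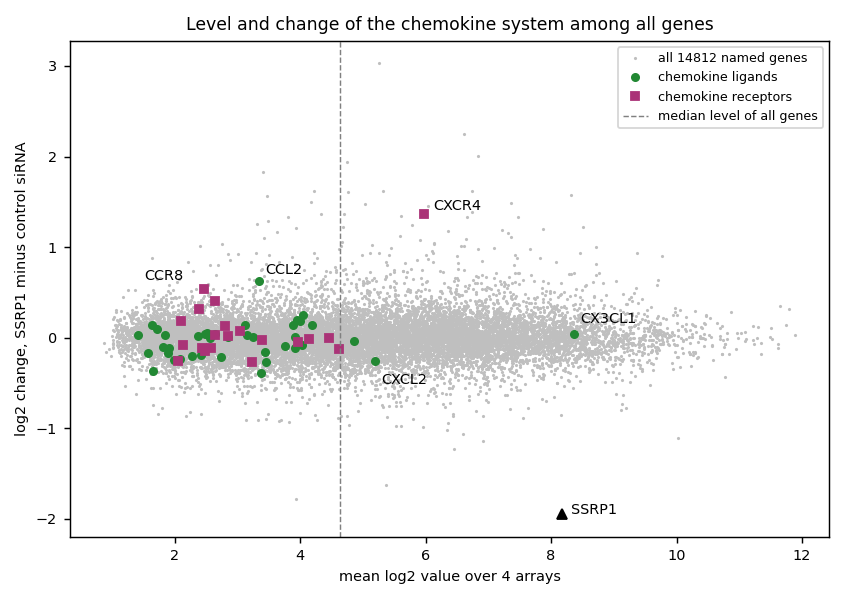
Log2 change (SSRP1 siRNA minus control siRNA, y axis) against the mean log2 value over the 4 arrays (x axis) for 14812 named genes in grey, with ligands as circles, receptors as squares and SSRP1 as a triangle. CXCR4 stands above the cloud at 1.36, CX3CL1 sits at a high level with a change of 0.04, and most other members lie to the left of the dashed median line.

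The call of CXCR4 did not hold in all of the alternatives run. Its log2 change could move only with quantile normalization (1.36), median centring (1.38) or an array left out. The block, the variance settings, probe set means, the level filter and the use of all probe sets could not alter it. Leaving out 1 array could not reverse a difference between groups that do not overlap. Without any 1 array the change lay between 1.24 and 1.49. In those fits, which keep 1 residual degree of freedom, the limma adjusted p lay between 0.241 and 0.599 and the unadjusted p between 0.000187 and 0.0014. The call was also lost with robust variances (adjusted p = 0.0512), over all 46255 probe sets (adjusted p = 0.169) and with the replicate number as a block (adjusted p = 0.0569). An exact permutation test of 2 against 2 arrays cannot give a two-sided p below 0.333.

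**Figure D3:**
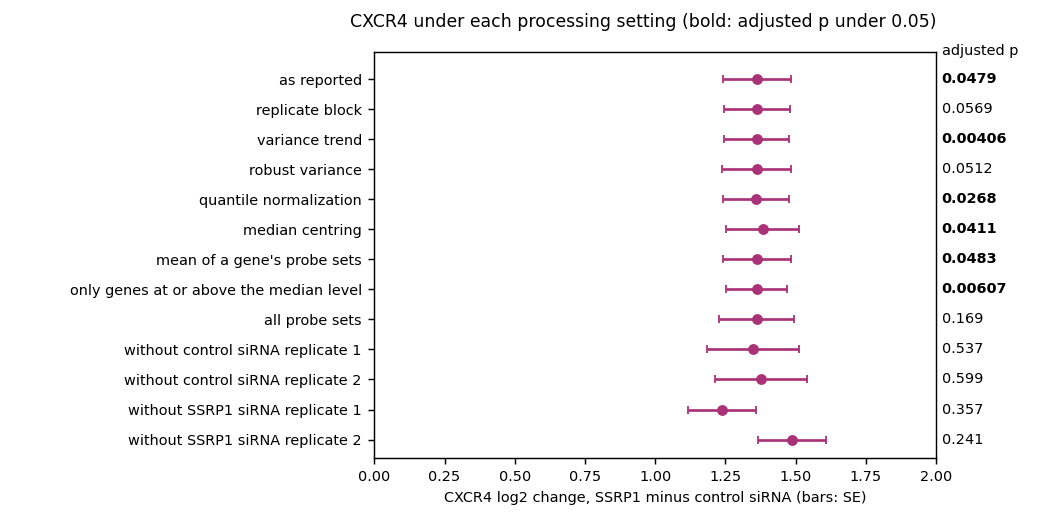
Log2 change of CXCR4 (x axis) with its SE as bars under the reported fit and 12 alternative settings (rows), with limma's adjusted p printed at the right, in bold where under 0.05. The change lies between 1.24 and 1.49, and only normalization, median centring or an array left out could move it. The adjusted p crosses 0.05.

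Both other genes of the CXCL12 system were measured, and neither passed the test. CXCL12 had log2 values of 3.83 and 3.89 with control siRNA and 4.08 and 4.03 with SSRP1 siRNA. Its groups did not overlap, but the log2 change was small at 0.20 ± 0.10 (SE), with an interval from -0.05 to 0.44 (limma adjusted p = 0.493). ACKR3 had values of 2.97 and 3.04 with control siRNA and 3.18 and 3.00 with SSRP1 siRNA, and its groups overlapped. Its change was 0.08 ± 0.11 (SE), with an interval from -0.20 to 0.36 (limma adjusted p = 0.830), so a doubling like that of CXCR4 lies outside both intervals. Both probe sets read below the median level, where changes may be understated.

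The remaining CXC receptors gave mixed and smaller values. CXCR5, which brings B cells and follicular helper T cells to lymphoid follicles, had values of 2.48 and 2.40 with control siRNA against 2.86 and 2.81 with SSRP1 siRNA. Its groups stood apart at a low level, with a log2 change of 0.40 ± 0.10 (SE, limma adjusted p = 0.240). CXCR2, a neutrophil receptor for ELR chemokines, had the lowest change of the class at -0.15, and CXCR1 stood at 0.18. CXCR3, the receptor of the interferon-inducible ligands, stood at -0.02 and CXCR6, the receptor for CXCL16, at -0.11.

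The CC receptors lay on both sides of 0, with 3 of 8 higher, 5 lower and none past the test. CCR8, a receptor of skin-homing and regulatory T cells, had values of 1.97 and 2.42 with control siRNA and 2.86 and 2.60 with SSRP1 siRNA. Its change of 0.54 ± 0.18 (SE, limma adjusted p = 0.345) was the largest of the class, and the control arrays differed from each other by 0.45. It was 0.31 without control siRNA replicate 1 and 0.76 without control siRNA replicate 2. CCR2, the monocyte receptor for CCL2, had values of 2.19 and 2.27 with control siRNA and 2.57 and 2.52 with SSRP1 siRNA, a change of 0.31 (limma adjusted p = 0.330). CCR1, a myeloid receptor for several inflammatory CC ligands, had the lowest change of the class at -0.26, with values of 2.06 and 2.31 against 1.97 and 1.89, and stood at -0.13 without control siRNA replicate 2. The other CC receptors, CCR4, CCR6, CCR7, CCR9 and CCR10, ran from -0.12 for CCR10 to 0.13 for CCR9, with no p under 0.05. XCR1 and CX3CR1, the receptors of dendritic cells and of monocytes and microglia, stood at -0.001 and 0.03, and XCR1 was above 0 after quantile normalization or median centring. Among the 4 atypical receptors, which scavenge chemokines, ACKR5 had the lowest change at -0.27 (-0.11 without control siRNA replicate 1) and ACKR3 the highest at 0.08.

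**Figure D4:**
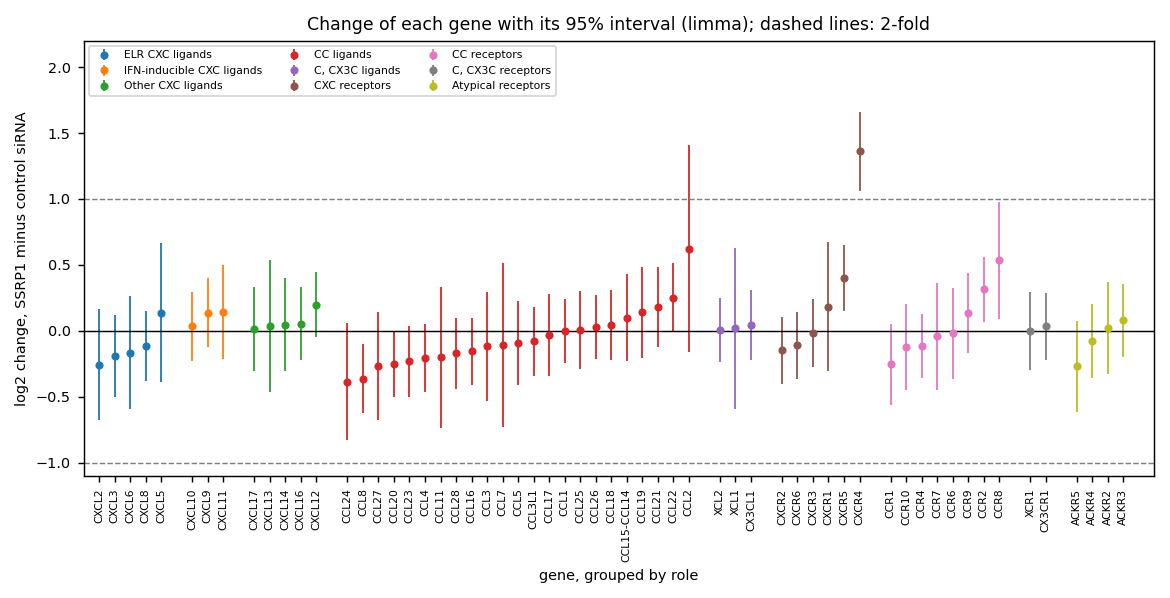
Log2 change (SSRP1 siRNA minus control siRNA, y axis) of each of the 59 genes with its 95% interval from limma, grouped and coloured by role, with dashed lines at 2-fold in each direction. The CXCR4 interval, 1.06 to 1.66, lies wholly above the upper dashed line, the CCL2 interval crosses it, and the other 57 lie between the lines.

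None of the 39 ligands passed the test. CX3CL1, a membrane-bound chemokine of neurons and endothelium also known as fractalkine, had values of 8.40 and 8.28 with control siRNA and 8.33 and 8.43 with SSRP1 siRNA. Its groups overlapped, and the change was 0.04 ± 0.11 (SE), with an interval from -0.22 to 0.31 (limma adjusted p = 0.910). This probe set was bright, so its interval is little affected by background. XCL1 and XCL2, lymphocyte chemokines nearly identical to each other, stood at 0.02 and 0.004.

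The ELR CXC ligands, which attract neutrophils through CXCR1 and CXCR2, had 1 of 5 measured members above 0 and 4 below, with a median of -0.17. CXCL2 was the lowest at -0.26, with values of 5.55 and 5.09 with control siRNA against 5.003 and 5.13 with SSRP1 siRNA, and its groups overlapped. Without control siRNA replicate 1 it stood at -0.03. CXCL5 was the highest at 0.14, and CXCL8, the main neutrophil attractant in humans, stood at -0.12. CXCL2 and CXCL3 are close copies, so their values may share signal. The 3 interferon-inducible ligands were all slightly above 0, from 0.03 for CXCL10 to 0.14 for CXCL11, and none passed the test. Those of CXCL10 and CXCL11 turned below 0 when certain single arrays were left out. The 5 other CXC ligands ran from 0.01 for CXCL17 to 0.20 for CXCL12.

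Of the 23 CC ligand genes 15 lay below 0 and 8 above, with a median change of -0.09, and none passed. CCL8, a monocyte attractant, had the smallest p of the ligands. Its values were 1.83 and 1.86 with control siRNA and 1.55 and 1.41 with SSRP1 siRNA, a change of -0.36 ± 0.11 (SE, limma adjusted p = 0.289). The groups did not overlap, at a level where background can weigh. CCL20, the ligand of CCR6, had values of 2.09 and 2.16 against 1.85 and 1.90, a change of -0.25 (limma adjusted p = 0.391). CCL24, an eosinophil attractant, had the lowest change at -0.39, with values of 3.80 and 3.33 against 3.29 and 3.08, and the control replicates alone differed by 0.47. It stood at -0.15 without control siRNA replicate 1, where CCL8 was lower, and at -0.62 without control siRNA replicate 2.

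CCL2 had the highest change of the CC ligands and the widest spread. This monocyte attractant is an NF-kB target. Its values were 2.90 and 3.17 with control siRNA and 4.15 and 3.16 with SSRP1 siRNA. One SSRP1 siRNA array was high and the other lay among the control arrays. The change of 0.62 ± 0.32 (SE) had an interval from -0.16 to 1.41 (limma adjusted p = 0.498), so the data do not settle whether CCL2 differed. With SSRP1 siRNA replicate 1 left out the change fell to 0.12, and with replicate 2 of that group left out it was 1.12. CCL22, a ligand of CCR4 made by dendritic cells, had values of 3.98 and 3.88 against 4.12 and 4.23, a change of 0.25 (limma adjusted p = 0.413). CCL23, a ligand of CCR1, had values of 2.12 and 2.30 against 1.99 and 1.97, a change of -0.23 (limma adjusted p = 0.465), or -0.14 without control siRNA replicate 2. The other CC ligands ran from -0.27 for CCL27, a skin chemokine, to 0.18 for CCL21, which draws T cells and dendritic cells to lymph nodes. CCL3, CCL3L1 and CCL4 stood at -0.12, -0.08 and -0.21. CCL3 and CCL3L1 are near-identical copies and their values are uncertain as measures of one gene.

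As a group, the 59 genes lay evenly around 0, with 29 above and 30 below and a median change of -0.0005, against -0.007 over all genes. At an unadjusted p under 0.05 there were 6 members (10.2%), against 12.6% of all genes and 9.38% of all genes below the median level. Of these 4 were higher, all receptors (CXCR4, CXCR5, CCR2 and CCR8), and 2 were lower, both ligands (CCL8 and CCL20). Over all genes 6.56% were higher and 6.03% lower at that threshold, and whether receptors and ligands differed was not tested. The groups did not overlap for 22 members (37.3%), 8 higher and 14 lower, against 44.3% of all genes, 21.8% higher and 22.5% lower. Among all genes below the median level the share without overlap was 35.1%. A 95% interval within 2-fold in both directions was found for 57 of 59 members (96.6%), against 97.5% of all genes. The exceptions were CXCR4 and CCL2. Apart from CXCR4 these shares are near the background.

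Many chemokine genes lie in clusters. The 16 measured members on chromosome 17, all but CCR7 and CCR10 and CXCL16 being CC ligands, had a median change of -0.10 with 12 below 0. The 9 on chromosome 4, all CXC ligands, had a median of 0.03, and the 10 on chromosome 3, all receptors, a median of 0.01. None of the 35 passed the test. Near CXCR4 on chromosome 2, the protein-coding genes MCM6 and HNMT, on either side of it, were measured. MCM6, a subunit of the replicative helicase, had values of 8.29 and 8.26 with control siRNA and 8.19 and 7.97 with SSRP1 siRNA, a change of -0.20 (limma adjusted p = 0.563). HNMT, which inactivates histamine, had a change of -0.09 (limma adjusted p = 0.770). The upper ends of their 95% intervals lay at 0.095 and 0.16, below the lower end for CXCR4.

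Genes around the chemokine system were read from 8 lists, and 62 of their 117 symbols were matched to a measured gene. GPR182, an unmatched symbol, is an older name of ACKR5, a member described above. None of the 62 passed the test in either direction. Their median change was 0.01, and 9 (14.5%) had an unadjusted p under 0.05, against 12.6% of all genes. Of these 8 (12.9%) were higher and 1 (1.61%) lower, against 6.56% and 6.03% of all genes. Of the partners of CXCR4 and CXCL12, 6 of 8 were measured. TPST2, which sulfates tyrosines on receptors such as CXCR4, had values of 4.20 and 4.33 with control siRNA and 4.79 and 4.77 with SSRP1 siRNA. Its groups stood apart, with a change of 0.52 ± 0.10 (SE, limma adjusted p = 0.183). SDC4, a heparan sulfate proteoglycan that binds CXCL12, had values of 6.64 and 6.13 against 5.88 and 5.45, a change of -0.72 ± 0.22 (SE, limma adjusted p = 0.311). MIF, a cytokine that also binds CXCR4, stood at -0.01 with values between 10.1 and 10.2.

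Downstream of the receptors, RGS16 and RGS13, which shorten G protein signals, had changes of 0.72 and 0.74 (limma adjusted p = 0.195 and 0.222). RGS16 had values of 8.21 and 8.59 with control siRNA and 9.06 and 9.18 with SSRP1 siRNA. RGS13 had values of 3.16 and 2.83 against 3.55 and 3.94, below the median level, where a probe set may read background. Among the 10 measured desensitisation genes the median was 0.02, and 2 (20%) had an unadjusted p under 0.05, against 12.6% of all genes. Of the 21 measured migration and survival effectors, ELMO1, which with a DOCK protein activates RAC, had values of 6.85 and 6.79 against 7.50 and 7.31. Its change was 0.58 ± 0.11 (SE, limma adjusted p = 0.173). BCAR1, an adhesion scaffold, stood at 0.55 (limma adjusted p = 0.178) and PTK2B, a calcium-responsive kinase, at 0.35 (limma adjusted p = 0.308). PTK2B lay below the median level of all genes. The median of that list was 0.01, and 3 of the 21 (14.3%) had an unadjusted p under 0.05, against 12.6% of all genes. RHOA, AKT1 and AKT2 stood at -0.005, -0.01 and 0.01. Of the 13 heterotrimeric G protein genes listed 1 was measured, GNA12 at 0.03, so that step is not described here.

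**Figure D5:**
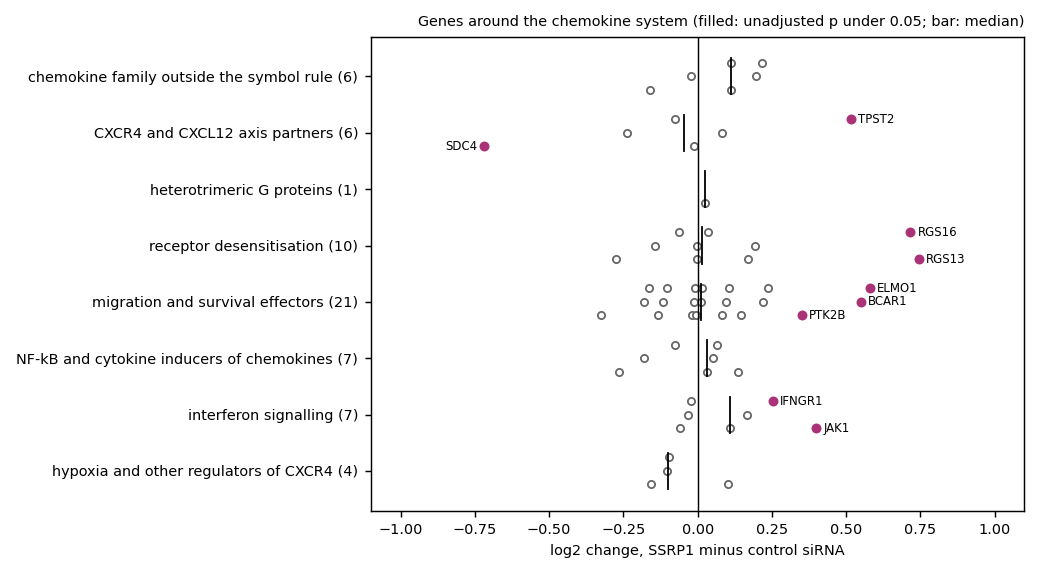
Log2 change (SSRP1 siRNA minus control siRNA, x axis) of the 62 measured genes in 8 lists around the chemokine system (rows, with the number measured), with filled points at an unadjusted p under 0.05, open points otherwise and a bar at each median. Most points lie near 0, and 8 of the 9 filled points lie to the right.

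Upstream of inflammatory chemokines, 7 of 15 NF-kB and cytokine genes were measured, with a median of 0.03, and TNF had the smallest p at -0.18 (limma adjusted p = 0.519). In the interferon list 7 of 11 genes were measured, with a median of 0.11. The kinase gene JAK1 had values of 7.55 and 7.24 against 7.73 and 7.86, a change of 0.40 (limma adjusted p = 0.350). The interferon gamma receptor gene IFNGR1 stood at 0.25 (limma adjusted p = 0.380). Of 6 listed regulators of CXCR4 transcription 4 were measured, with a median of -0.10. The hypoxia genes HIF1A and VHL were not matched to a measured gene and are not described here. YY1 had the smallest p at -0.10 (limma adjusted p = 0.760), NRF1, the factor named for the core in the CXCR4 promoter, stood at 0.10, and EPAS1 at -0.16. Of 8 chemokine-related symbols listed as outside the symbol rule, 6 were matched, and GPR182 among the rest is the member ACKR5. Among the 6 the platelet gene PF4V1 had the smallest p, with a change of 0.20 (limma adjusted p = 0.631).

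CXCR4 is also a gene of leukocytes, endothelium and stroma, so markers of other cells were read beside it. Of 14 leukocyte markers 7 were measured and none passed the test. Of these 4 had a change below 0, the lowest CD2 at -0.27, and 3 above, the highest CD4 at 0.27. The log2 of the summed level of the 7 ran from 7.29 to 7.45 with control siRNA and from 7.245 to 7.248 with SSRP1 siRNA. Of 5 endothelial markers 2 were measured, with sums from 4.02 to 4.05 and from 3.99 to 4.10. Of 4 Schwann markers 2 were measured, with sums from 6.02 to 6.03 and from 6.19 to 6.35. S100B stood at 0.47 (limma adjusted p = 0.262), and SOX10 at 0.04 with groups that overlapped. Of 5 fibroblast markers LUM and DCN were measured, with sums from 6.98 to 7.68 and from 8.38 to 8.61. LUM stood at 1.20 (limma adjusted p = 0.184) and DCN at -0.04. For the 8 noradrenergic markers the sum was 11.73 on both control arrays and lay from 11.5 to 11.57 with SSRP1 siRNA, lower without overlap. The leukocyte sums were also lower without overlap, the Schwann and fibroblast sums were higher without overlap, and the endothelial sums overlapped. Bright genes weigh most in such a sum, so it need not describe the other markers of its list. Of all single genes 44.3% had groups that did not overlap. BE(2)C is a cell line, so these markers were read in RNA of its cultures and do not count cells of other types. How the markers relate to the CXCR4 value was not tested. In bulk RNA, more cells with CXCR4 and more CXCR4 RNA per cell cannot be told apart.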

How the data were processed

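RNA was measured on 4 arrays, 2 per group, grouped by sample title. The authors deposited log2 expression values per probe set, which RMA produced according to the submitters' processing notes. The log2 scale was read from the values, 0.502 to 12.8. For the software, probe set definition and build nothing is given in the sources used here. Of 46255 probe sets, 15835 had 1 gene symbol in the platform annotation, 0 several, and 30420 were unnamed and left out. Their gene IDs matched the RefSeq table of GRCh38.p14, giving 14812 genes. For genes with several probe sets the one of highest mean was used. Protein-coding family genes without a named probe set, such as CXCL1, CCR3 and ACKR1, were not analysed here.

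Genes were tested together with limma 3.58.1 (R 4.3.3), lmFit and eBayes without trend or robust estimation, two-sided, with Benjamini-Hochberg adjustment over all genes and a threshold of 0.05. The fit had 2 residual and 3.79 prior degrees of freedom. It was tested on simulated data. The number of arrays limits precision.

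The members and lists were chosen with earlier results of these data known. Named by rule were SSRP1, CXCR4, CXCL12, ACKR3, members past the test, the 10 members of smallest p, the extremes of each role, the member of smallest p of each pathway list and neighbours of CXCR4. Other genes were named after their values were seen. Alternatives were the replicate block, a variance trend, robust variances, quantile normalization, median centring, probe set means, a level filter, all probe sets, an adjusted p under 0.1 and each array left out.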

Additional observations from a re-analysis of the deposited data

How the results depend on the processing

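Across the 12 alternatives CXCR4 lay between 1.24 and 1.49, and only normalization, median centring or an array left out could move its change. It passed with a variance trend, quantile normalization, median centring, probe set means and the level filter (adjusted p from 0.00406 to 0.0483). With robust variances and over all probe sets the CXCR4 change was 1.36, the SSRP1 change -1.95 (neither past the test) and the count of members 0 (limma, 6 and 5 members at an unadjusted p under 0.05). With each array left out SSRP1 ran from -2.17 to -1.72, not past the test, and 0 members passed (4 to 8 at an unadjusted p under 0.05). The replicate block gave 1.36 for CXCR4 and -1.95 for SSRP1, both at an adjusted p of 0.0569, with 0 members past the test (6 at an unadjusted p under 0.05) and 6 genes. Same-numbered samples deviated together with a correlation of 0.114 across genes, and with 2 pairs the numbers do not establish pairing.

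Over all genes the count of 14 became 215 with a trend (143 higher), 179 with the level filter, 28 after quantile normalization (19 higher), 23 after median centring (17 higher), 9 with robust variances and 41 at an adjusted p under 0.1. It was 0 over all probe sets and with each array left out (limma, 3854 and 1200 to 1672 at an unadjusted p under 0.05). With arrays left out ACKR3 ran from -0.013 (without SSRP1 siRNA replicate 1) to 0.17, and CX3CL1 from -0.015 (without control siRNA replicate 2) to 0.10, with -0.0055 without SSRP1 siRNA replicate 2. In such fits XCL2 ran from -0.0222 to 0.0305, CX3CR1 from -0.0186 to 0.0876, CXCL5 from -0.176 to 0.447, CXCL17 from -0.11 to 0.134, CXCL10 from -0.0246 to 0.0914, CXCL11 from -0.0037 to 0.287 and XCR1 from -0.107 to 0.104. XCR1 was 0.0185 after quantile normalization and 0.0194 after median centring. Of the members named by rule, the 14 others besides CXCR4 kept their direction, and none but CXCR4 passed in any alternative. Members outside that rule entered only the counts of members, and their single changes under the alternatives were not recorded.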
